A study of Homo sapiens with 6 samples.

Results

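The integrated stress response and the unfolded protein response are represented here by 38 genes of 20050 protein-coding genes with a GRCh38 span. They came from a list of names chosen with earlier results of these data known. In the integrated stress response, kinases that phosphorylate the initiation factor eIF2 slow general translation while raising translation of ATF4, and ATF4 and its partners then switch on genes of amino acid supply. In the unfolded protein response, the membrane proteins IRE1 (gene ERN1), PERK (gene EIF2AK3) and ATF6 sense unfolded protein in the endoplasmic reticulum (ER), and chaperone and degradation (ERAD) genes are induced. Pancreatic cancer cells are known to use both responses under nutrient and ER stress.

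The study asked which polyadenylated RNAs carry N1-methylguanosine (m1G), a methylated G that an anti-m1G antibody can precipitate from fragmented RNA. The material was PANC-1, an established human pancreatic ductal adenocarcinoma line. Cells depleted of the methyltransferase TRMT5 by siRNA for 4 days gave 2 precipitates and 1 input library. Control-transfected cells, titled WT control, gave 2 precipitates and 1 input library. The deposited data used here are 2 lists of peak positions made over the series, naming no condition or library and giving no read counts. Depth is therefore unknown, no value has an error over replicates, and TRMT5-depleted and control cells are not compared here, nor is the level of TRMT5 itself.

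A peak of the MeTDiff list was given to a gene when it lay wholly inside the gene span on the strand of the gene. A summit of the MACS2 list, which has no strand, was given to a gene when its position lay inside the span. The fold of a MeTDiff peak is the authors' ratio of precipitate over input, with the authors' false discovery rate (FDR). The score of a MACS2 summit is the authors' −log10 significance, and the list does not say whether from p or from q. An RNA must be present to give a peak, and these files hold no expression values.

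Peaks were found on 27 of the 38 stress-response genes in the MeTDiff list (71.1%, 95% Wilson interval 55.2 to 83.0, counting error only), against 36.6% of all protein-coding genes. In the MACS2 list, 15 of the 38 held a summit (39.5%, interval 25.6 to 55.3), against 18.0% of all protein-coding genes. All 15 genes with a summit also had a MeTDiff peak, so 15 of 38 stood in both lists, against 16.7% of all protein-coding genes. The remaining 11 genes had neither. These were ATF6, ERN1, EIF2AK2, ATF3, DDIT3, NUPR1, ASNS, SLC7A11, PSPH, MTHFD2 and MANF.

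The folds of the members were moderate. Their largest fold had a median of 5.07 over the 27 genes, with quartiles of 3.21 and 9.71, against a median of 6.00 with quartiles of 3.75 and 9.75 over the 7335 protein-coding genes with a peak. Their highest score had a median of 20.2 over 15 genes, against 18.9 over 3611 genes. In all, the 38 genes held 49 MeTDiff peaks of 18431 and 23 MACS2 summits of 6264. A gene with a peak had 1 to 3 of them, while 19.2% of all protein-coding genes with a peak had more than 3. The 27 genes with a peak had a shorter median span, 13712 bp, than the 11 genes without, 55371 bp. Over all protein-coding genes the order was the opposite, at 27600 bp with a peak and 21972 bp without.

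**Figure D1:**
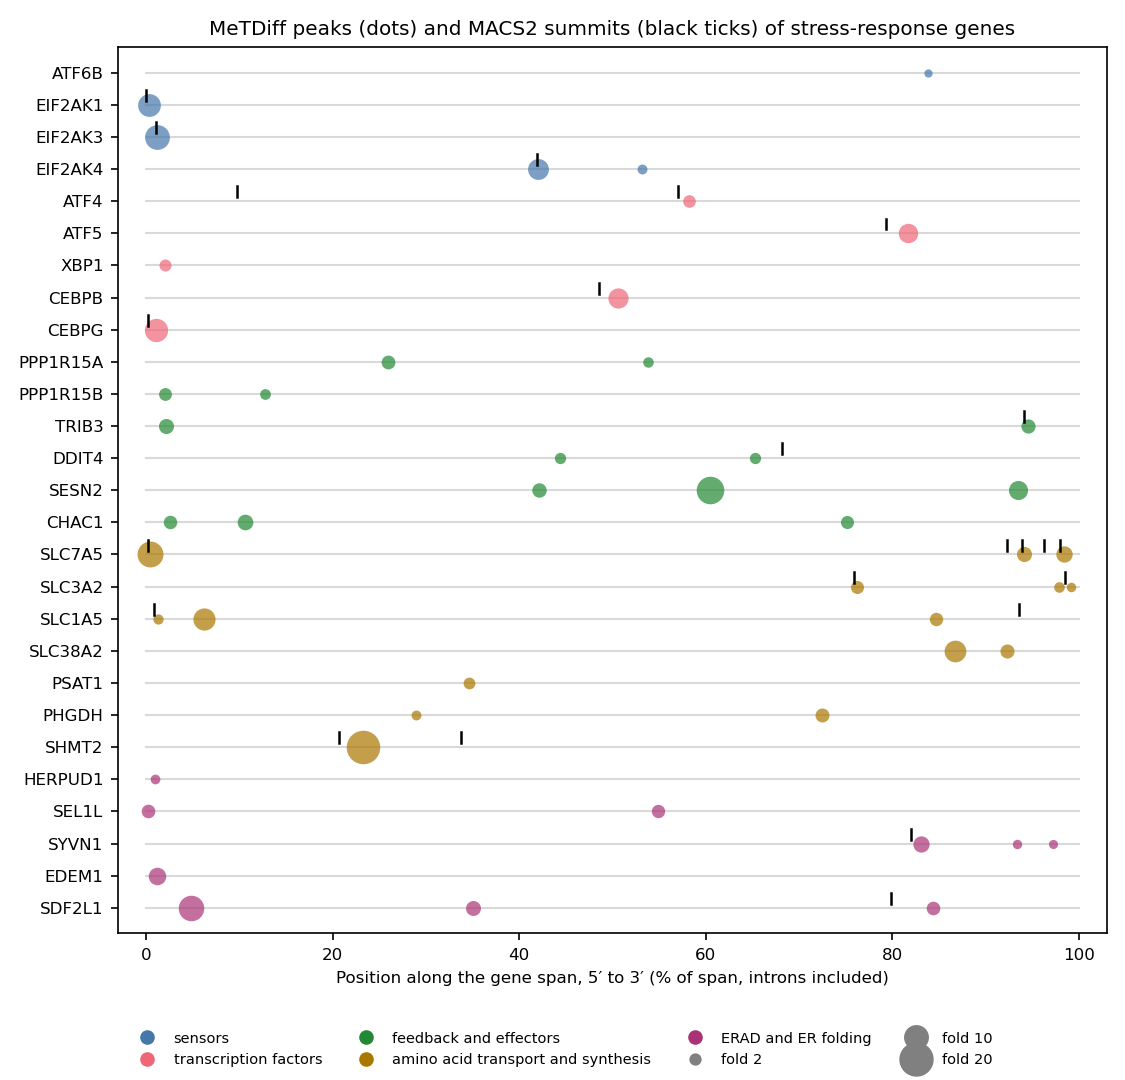
Position of the 49 MeTDiff peaks (dots at the peak midpoint, area proportional to fold, colour by role) and 23 MACS2 summits (black ticks) along the spans of the 27 genes with a peak, from the 5′ end to the 3′ end in percent of the span, introns included. The peak of largest fold lies at 0.338% to 4.8% of the span in EIF2AK1, EIF2AK3, CEBPG, SLC7A5 and SDF2L1, and at 86.7% in SLC38A2 and 83.1% in SYVN1.

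Among the 7 sensors, 4 had a MeTDiff peak and 3 a summit, and these were mainly the eIF2 kinases. Over all protein-coding genes, 36.6% had a peak and 18.0% a summit, the background for each role below. Of the 4 kinase genes, EIF2AK2 (PKR, activated by double-stranded RNA) had no peak. EIF2AK1 encodes HRI, the kinase known for sensing haem shortage and mitochondrial stress. Its only peak, of 9.97-fold (FDR 0.000479), joined 2 blocks and began at the very 5′ end of the span (chr7:6058202-6059175, minus strand), with a summit of score 29.7 lying 5 bp from that end. EIF2AK3 encodes PERK, the ER-bound kinase. Its peak of 11.8-fold (FDR 0.000501, chr2:88627166-88627414, minus strand) held a summit of score 14.1. The peak began 731 bp into the span, but 50 bases after a start that RefSeq lists inside it. The EIF2AK3 peak thus lay just after an internal listed start, and by its distance from the end of the span it counts as interior below. For EIF2AK1 no start is listed here. Its strand was taken from this same peak, so its 5′ end is only an end of the span.

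EIF2AK4, which encodes the amino acid sensor GCN2, differed from the other kinases in place. Its peaks of 8.35-fold and 1.90-fold lay 42.0% and 53.2% along the span, and its summit of score 15.8 lay 78 bp outside the stronger peak. The ER sensors of the other branches had little. ATF6B, a relative of ATF6, had a single peak of 1.32-fold that covered 100 bases in 3 blocks and ranked 18294 of the 18431 peaks by fold. ATF6 and ERN1 had no peak and no summit, although ERN1 spans 91003 bp and ATF6 197751 bp.

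Of the 8 transcription factor genes, 5 had a MeTDiff peak, each of them exactly 1, and 4 had a summit. CEBPG, a dimerisation partner of ATF4, had the largest fold of the group with 10.4 (FDR 0.00204, chr19:33373734-33373883, plus strand), 25 bases after its start. Its summit of score 12.2 lay 5 bp outside the peak, on the side of the start. CEBPB, another C/EBP factor induced under stress, had 7.83-fold in the middle of its span (50.6%), with a summit of score 24.6 inside. ATF5, which like ATF4 is regulated through upstream open reading frames, had 7.25-fold at 81.7% of its span and a weak summit of score 4.57.

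ATF4, the central effector of the integrated stress response, had 3.06-fold (FDR 0.00282, chr22:39521648-39521847, plus strand). That peak, of 2 blocks, held a summit of score 20.1, and a far weaker summit of score 2.89 lay 207 bp from the 5′ end. XBP1, whose mRNA is spliced by IRE1 in the cytoplasm, had 2.78-fold at its 5′ end and no summit. The stress-induced factors ATF3, DDIT3 (CHOP) and NUPR1 had no peak in either list. The promoter table lacked NUPR1, whose strand was not set here.

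All 6 feedback and effector genes had 2 or 3 MeTDiff peaks, 14 in total. Of all protein-coding genes with a peak, 23.7% had exactly 2, 12.8% exactly 3 and 19.2% more than 3. A summit lay in 2 of the 6 feedback and effector genes (33.3%, Wilson interval 9.68 to 70), against 18.0% of all protein-coding genes. The phosphatase cofactor genes PPP1R15A (GADD34) and PPP1R15B (CReP), whose products reverse eIF2 phosphorylation, had 2 peaks each and no summit. PPP1R15A had 3.67-fold and 2.12-fold at 25.9% and 53.8% of its span, and PPP1R15B had 3.17-fold near the 5′ end and 2.23-fold at 12.7%. TRIB3, a pseudokinase gene induced by ATF4, had 4.36-fold near the 5′ end, and 3.88-fold with a summit of score 20.2 at 94.5% of the span. DDIT4 (REDD1), an inhibitor of mTORC1, had folds of 2.45 and 2.44 and a summit of score 2.92, ranked 6208 of 6264.

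SESN2 and CHAC1 had 3 peaks each and no summit. SESN2, a leucine sensor that restrains mTORC1, had 4.00-fold, 14.6-fold and 7.0-fold from the 5′ end to the 3′ end. The 14.6-fold peak had an FDR of 0.0331, the highest among the 49 peaks, so the largest fold of this group also had the weakest FDR. CHAC1, a glutathione-degrading enzyme gene downstream of ATF4, had 3.50-fold, 4.72-fold and 3.29-fold, all with the same FDR of 0.000186.

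**Figure D2:**
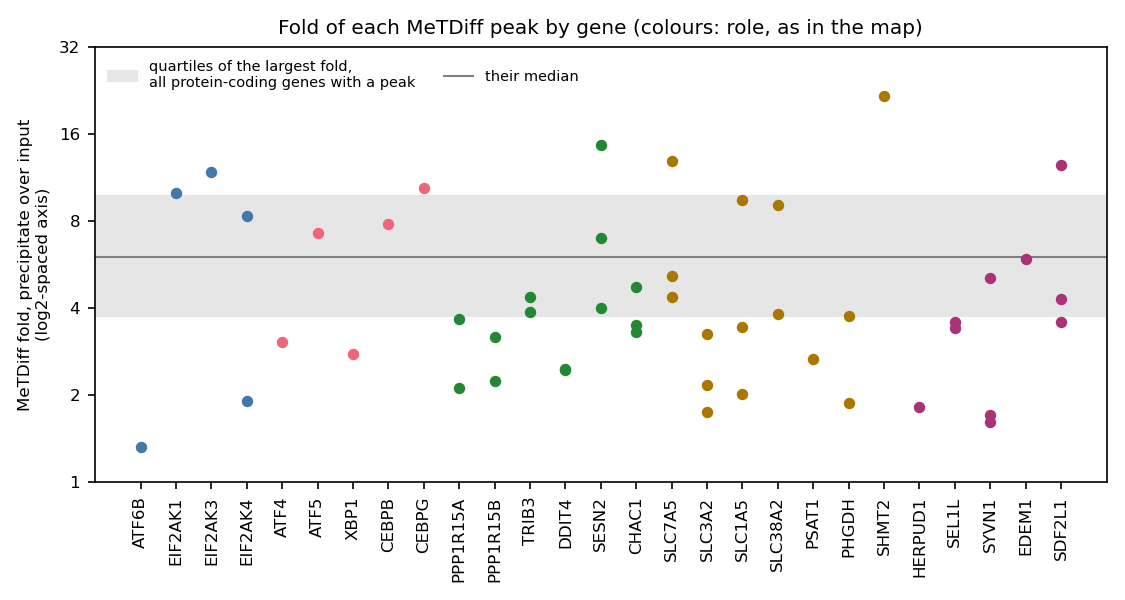
Fold of every MeTDiff peak, precipitate over input, on a log2-spaced axis for the 27 genes with a peak, coloured by role. The grey band and line give the quartiles, 3.75 and 9.75, and the median, 6.00, of the largest fold over all protein-coding genes with a peak. SHMT2 stands highest at 21.6, followed by SESN2 at 14.6, SLC7A5 at 12.9 and SDF2L1 at 12.5.

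Amino acid genes held both the largest fold and the highest scores. Of the 11 genes, 7 had a MeTDiff peak and 4 a summit. Among the transporters, SLC7A5 (LAT1), the light chain of the large neutral amino acid exchanger, had 3 peaks and 5 summits, the most summits of any member. Its peak at the 5′ end had 12.9-fold (FDR 0.000234, chr16:87869259-87869457, minus strand) and held the summit of score 77.6, ranked 39 of 6264. The other peaks, of 4.37-fold and 5.15-fold, lay at 94.1% and 98.4% of the span. The 4 remaining summits, of scores 35.1, 16, 4.22 and 39.1, lay at 92.3%, 93.9%, 96.3% and 98%. Those of scores 35.1 and 4.22 were 662 and 667 bp from the nearest peak. SLC7A5 thus had a peak at its 5′ end and peaks from 94.1% of its span on, over 500 bp from the 3′ end, with none between.

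SLC3A2, which encodes the heavy chain that SLC7A5 pairs with, had lower folds of 3.25, 2.17 and 1.74. Its summit of score 44.0 lay in the 3.25-fold peak, the longest of the 49 at 399 bases, which overlapped an internal RefSeq start (chr11:62880878-62881276, plus strand). A further summit of score 15.5 lay 65 bp outside the peaks near the 3′ end. SLC1A5 (ASCT2), a glutamine transporter gene, had 9.45-fold at 6.16% of its span, 2.02-fold at the 5′ end and 3.44-fold at 84.7%, with summits of scores 20.4 and 19.1. SLC38A2 (SNAT2), a transporter gene induced on amino acid starvation, had 9.05-fold and 3.81-fold at 86.7% and 92.3% of the span, and no summit. SLC7A11, the cystine transporter gene, had no peak.

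Within serine and one-carbon metabolism the values were uneven. SHMT2, the mitochondrial serine hydroxymethyltransferase gene, had the largest fold of all members, 21.6 (FDR 0.000427, chr12:57230847-57230997, plus strand), ranked 355 of 18431. A summit of score 40.6 lay 55 bp outside that peak and another of score 10.9 further along. The serine synthesis gene PHGDH had 1.88-fold and 3.75-fold at 28.9% and 72.4% of its span, and PSAT1 had 2.67-fold at 34.6%, all without a summit. PSPH, which encodes the last enzyme of that route, had no peak. MTHFD2, which acts after SHMT2 in mitochondrial folate metabolism, and the asparagine synthetase gene ASNS had none either.

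**Figure D3:**
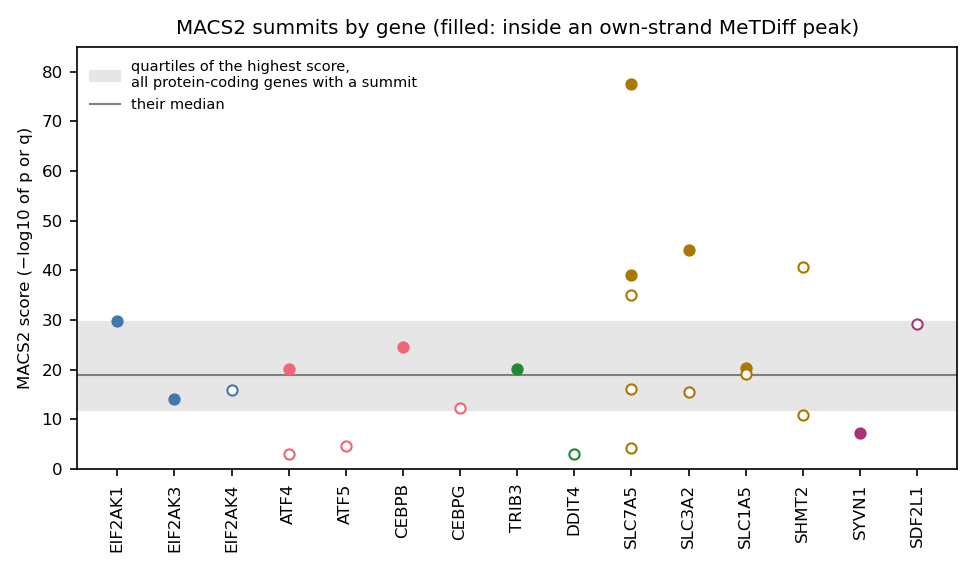
Score of every MACS2 summit for the 15 genes with a summit, coloured by role and filled where the summit lies inside a MeTDiff peak of the gene. The grey band gives the quartiles, 11.8 and 29.6, and the line the median, 18.9, of the highest score over all protein-coding genes with a summit. SLC7A5, SLC3A2 and SHMT2 reach 77.6, 44.0 and 40.6, above the band.

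Of the 6 ERAD and ER folding genes, 5 had a MeTDiff peak and 2 a summit. SDF2L1, a cofactor of ER chaperones, had 3 peaks over a span of 1998 bp. Its folds were 12.5 at the 5′ end (FDR 1.66e-05, chr22:21642350-21642446, plus strand), 4.30 at 35.0% and 3.57 near the 3′ end, and a summit of score 29.1 lay 15 bp outside the last of these. A further summit of score 34.3 lay 6 bp before the span of SDF2L1 and is not counted among the 23. HERPUD1, an ER membrane protein gene of the degradation complex, had only 1.81-fold, 50 bases after its start.

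The ubiquitin ligase pair of ERAD differed in place. SYVN1 (HRD1) had 5.07-fold at 83.1% of its span with a summit of score 7.16 on its first base, and 1.70-fold and 1.61-fold closer to the 3′ end. SEL1L, its adaptor, had 3.58-fold at the 5′ end and 3.42-fold in a peak of 3 blocks at 54.9%. EDEM1, whose product directs misfolded glycoproteins to degradation, had 5.90-fold within 500 bp of the 5′ end. MANF, a secreted protein gene induced by ER stress, had no peak and no summit.

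Peaks near the 5′ end made up 13 of the 49 (26.5%, Wilson interval 16.2 to 40.3), against 15.9% of the 17808 peaks assigned to all protein-coding genes. Here near means that the midpoint lay within 500 bp of the end of the span. They belonged to 12 genes. Peaks near the 3′ end made up 4 of 49 (8.16%, interval 3.22 to 19.2), against 6.55%, and came from SLC3A2, SYVN1 and SDF2L1. The other 32 were interior (65.3%, interval 51.3 to 77.1), against 77.5%. In the 54 other pathway genes described below, 18 of 85 peaks lay near the 5′ end (21.2%, interval 13.8 to 31). Members with a peak had a median span of 13712 bp, against 27600 bp for all protein-coding genes with a peak. A fixed window of 500 bp thus covers more of a member's typical span, and its bearing on the shares was not tested. Genes are not independent replicates, and no test was made of these shares.

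**Figure D4:**
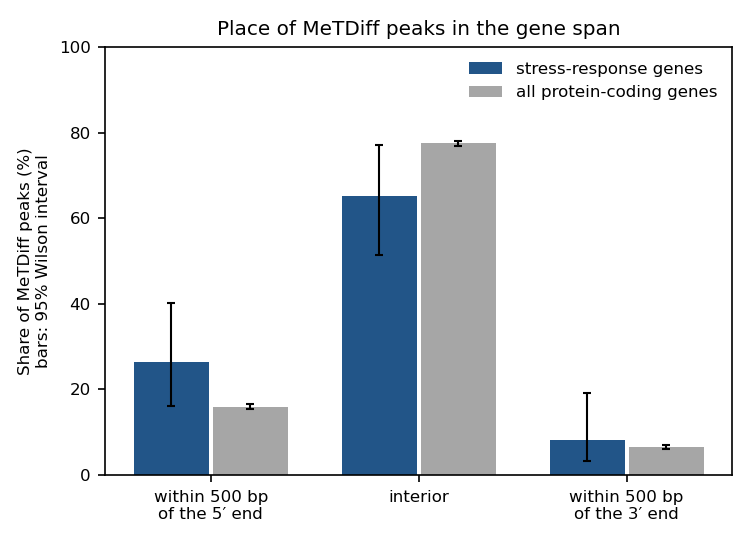
Share of MeTDiff peaks near the 5′ end, in the interior and near the 3′ end of the gene span, in percent with 95% Wilson intervals, for the 49 peaks of the stress-response genes and the 17808 peaks of all protein-coding genes. The 5′ end holds 26.5% of the stress-response peaks and 15.9% of all.

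Peak lengths ran in steps of 50 bases. Of the 49 peaks, 45 covered a number of bases within 2 of a multiple of 50, as did 96.4% of peaks over all protein-coding genes. In 10 genes a peak began 0 to 100 bases after a RefSeq start or the 5′ end of the span. EIF2AK1 counts only by the end of its span, since no start is listed for it. These were 20.4% of the 49 peaks, against 13.5% of peaks over all protein-coding genes by the same rule. In EIF2AK3, SLC7A5, HERPUD1 and SEL1L the peak began exactly 50 bases after such a start or end, or 8.16% of peaks, against 2.25%. A start of a peak is thus resolved to about 50 bases, and m1G cannot be placed on a given G.

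In 5 genes a peak reached into the first 50 bases after a listed start. For 4 of them the sequence there is shown so that the part inside the peak can be seen. The fifth, SDF2L1, had only 2 of those bases inside its peak and is left out. EIF2AK1, whose peak begins at the first base of the span, has no entry in the promoter table. Each line holds bases 20 to 49 after a start listed by RefSeq (GRCh38.p14), the start being base 0, read 5′ to 3′ on the gene strand, with the bases inside the MeTDiff peak in capitals. The positions are chr19:33373729-33373758 (plus strand) for CEBPG, chr15:40953491-40953520 (plus) for CHAC1, chr22:28800520-28800549 (minus) for XBP1 and chr11:62880916-62880945 (plus) for SLC3A2.
CEBPG: ggggaAGCCGGTGGCCGCGGCTGCGGAACG
CHAC1: gccaggccAGGTGTGTGCGTCCGTCGGTCT
XBP1: ggTGCGCGGTGCGTAGTCTGGAGCTATGGT
SLC3A2: CGCGGAGGCACAGAGGCCGGGGAGAGCGTT
The CEBPG summit is the leftmost base of its line. The peak itself runs on beyond the last base shown in each gene.

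Some members share a known response element before a listed start, shown because ATF4 targets are known to carry it. The letters TGATGCAA, the core of the C/EBP-ATF response element, were searched on both strands of the promoter table, which holds 250 bases before and 50 after each start. They occurred at 5 of the 33 members with an entry and at 0.866% of all promoters, or 1.08% of genes. All 5 genes, CEBPG, CHAC1, HERPUD1, PPP1R15B and SLC1A5, had a MeTDiff peak, as did 25 of the 33 members with an entry. The looser letters TGATGNAA occurred at 8 members, adding SLC3A2, ATF3 and ASNS, and at 3.62% of all promoters. ATF3 and ASNS had no peak, so 6 of these 8 had one. The core is in capitals on the gene strand, and where it lies on the other strand the capitals read TTGCATCA.
CHAC1 (chr15:40953251-40953280, plus strand): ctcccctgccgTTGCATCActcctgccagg
HERPUD1 (chr16:56931955-56931984, plus strand): gacgcggcgggTTGCATCAgcccgtgccca
PPP1R15B (chr1:204412026-204412055, minus strand): cccgccccggcTGATGCAAcctcacgctgc
CEBPG (chr19:33374060-33374089, plus strand): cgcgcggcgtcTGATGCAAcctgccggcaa
SLC1A5 (chr19:46784893-46784922, minus strand): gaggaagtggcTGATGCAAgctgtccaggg
In CHAC1, HERPUD1 and PPP1R15B the core began at positions −209, −176 and −227 from the start of the span. In CEBPG and SLC1A5 it lay before an internal start, at −42 and −97, and their strongest peaks, of 10.4-fold and 9.45-fold, were not at those starts.

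The ER stress response element, CCAAT and CCACG with 9 bases between, occurred at 1 member, XBP1, and at 0.0769% of all promoters. It began at position −52 from the start next to the 2.78-fold peak of XBP1 and is in capitals with its spacer.
XBP1 (chr22:28800592-28800632, minus strand): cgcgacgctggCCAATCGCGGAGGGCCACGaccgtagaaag
Matches describe letters only and are not evidence of binding.

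The peak lists agreed on genes more than on positions, here and over all protein-coding genes, where a whole span is a looser match than a peak. Of the 3611 protein-coding genes with a summit, 3346 also had a MeTDiff peak, as did all 15 members with a summit. Of the 23 summits, 10 lay inside an own-strand MeTDiff peak (43.5%, Wilson interval 25.6 to 63.2), against 36.7% over all protein-coding genes. A further 6 lay within 50 bp of a peak, and 7 lay 55 to 882 bp away. Summits inside a peak had scores of 7.16 to 77.6 with a median of 22.5, and those outside had 2.89 to 40.6 with a median of 15.5, so the ranges overlapped widely. In 7 of the 15 genes with both (46.7%), the peak of largest fold held a summit, against 36.5% of the 3346 protein-coding genes with both. The largest fold had a median of 8.35 in these 15 genes and of 3.62 in the 12 members without a summit, and over all protein-coding genes of 9.11 and 4.50.

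**Figure D5:**
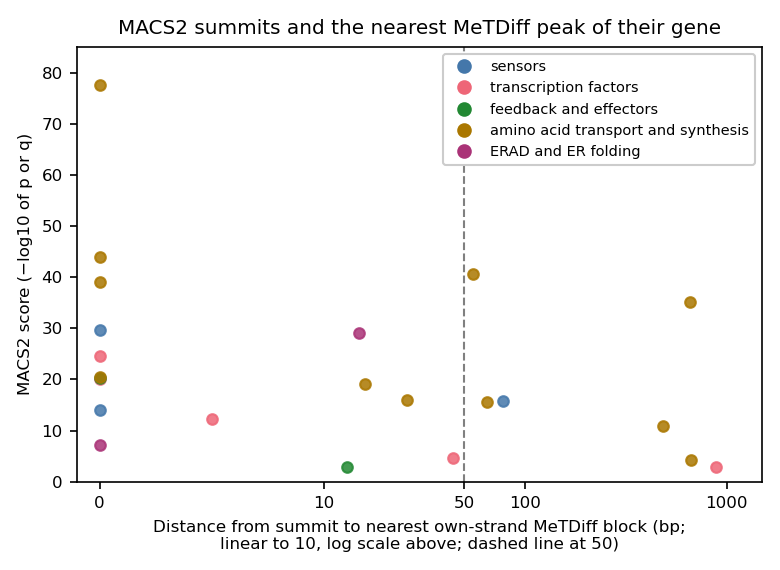
Score of each of the 23 MACS2 summits against its distance to the nearest MeTDiff peak of the gene, with distance 0 inside a peak, linear to 10 bp and logarithmic above. Of the 13 summits outside a peak, 6 lie left of the dashed line at 50 bp.

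Peaks on the opposite strand were present in 4 member spans and were not counted above. The share of all protein-coding genes with such a peak was not counted, so 4 cannot be called many or few. SLC1A5 held 4 such peaks, belonging to 1 other Ensembl ID, and each overlapped a peak of SLC1A5 itself. The 9.45-fold peak of SLC1A5 shared 84 bp with an opposite-strand peak of 8.5-fold, which the deposited list holds with 2 FDR values, 0.000302 and 0.000275. In CEBPB, a peak of 7.5-fold (FDR 4.07e-07) on the strand opposite to the gene shared 23 bp with the 7.83-fold peak, in a stretch where RefSeq lists CEBPB-AS1. ATF5 had opposite-strand peaks of 2.75-fold and 3.42-fold, overlapping the spans of IL4I1 and NUP62, and SHMT2 had one of 3.12-fold. The strand of SHMT2 was taken from its own peak of largest fold, so opposite there means opposite to that peak. Whether the libraries keep strand is not given in the sources used here, so for SLC1A5 and CEBPB reads of the paired strands cannot be told apart.

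A list of 54 other genes of these pathways gave shares of similar size. Of these, 35 had a MeTDiff peak (64.8%, Wilson interval 51.5 to 76.2) and 21 a summit (38.9%, interval 27.0 to 52.2). ER chaperone genes had a peak in 9 of 11 cases and a summit in 8 of 11. Genes of eIF2 and its exchange factor eIF2B had a peak in 4 of 8 cases and a summit in 1 of 8. Over all protein-coding genes the shares were 36.6% and 18.0%. The peak shares of the 2 groups have overlapping Wilson intervals, 52.3 to 94.9 and 21.5 to 78.5. The intervals of their summit shares overlap only slightly, at 43.4 to 90.3 and 2.24 to 47.1. The largest folds were 37.0 in NARS1, an asparaginyl-tRNA synthetase gene that ATF4 induces, 15.2 in the proline synthesis gene PYCR1, 13 in the span of the lectin chaperone gene CANX and 12 in the ER chaperone gene HYOU1. The 13-fold peak carries another Ensembl ID than the other CANX peaks, which reach 11.2-fold, as does PDIA4. The highest scores were 91.9 in NARS1, 71.0 in the ERAD ATPase gene VCP, 46.3 in the transaminase gene GPT2 and 39.3 in the disulfide isomerase gene PDIA6.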

How the data were processed

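The 6 libraries were described and 2 peak lists of the series were used. STAR 2.7.1, bedtools, MACS2 2.2.5 and build GRCh38 are named per the submitters' processing notes. Settings and the libraries pooled for each list are not stated. The deposited MACS2 list gives a −log10 p-value or q-value per summit of 1 bp. The deposited MeTDiff list holds for each peak a p-value, an FDR as log10, and a fold (the ratio between precipitate and input), identified from the order and range of the columns.

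Gene spans, listed starts and sequences came from RefSeq (GRCh38.p14). Strand came from the promoter table for 33 members, from the MeTDiff peak of largest fold in the span for EIF2AK1 and SHMT2, and was not set for NUPR1, SLC7A11 and PSPH. Over all protein-coding genes these sources gave 15842 and 1288 strands. Spans of 14 members overlap another gene. The text names every member, and of the other pathway genes the 4 with the largest fold and the 4 with the highest score. Members and lists were chosen with earlier results of these data known, so no test was made. Shares have 95% Wilson intervals for counting error. Interval rules were tested on simulated data (Python 3.11.15, pandas 2.3.3, SciPy 1.17.1). Transcript models and base composition of peaks were not used here.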

Additional observations from a re-analysis of the deposited data

How the results depend on the processing

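The number of stress-response genes with a MeTDiff peak was 25 to 27 when any overlap, either strand, an FDR of 0.01 or less, or only peaks free of other gene spans was required, and the last of these dropped ATF5 and CEBPB. Over all protein-coding genes the shares were 37.2%, 37.2%, 34.6% and 31.3% in the same order. With only summits at or above the median score of 16.4, 9 of the 38 genes held a summit and 9 stood in both lists, against 10.4% and 9.98% of all protein-coding genes. Under that setting 66.7% of the members' summits lay inside a MeTDiff peak, against 41.3% over all protein-coding genes. With all 23 summits and 50 bp allowed around a peak, 69.6% did so, against 61.9%. Counting summits anywhere between the start and end of a peak, gaps included, gave 47.8% against 55.5%, so the members' share was then the lower one. The share of peaks near the 5′ end ran from 18.4% with a window of 250 bp to 36.7% with 1000 bp, against 11.1% and 20.4%. Distances to any listed start gave 32.7% against 19.8%, a setting chosen after seeing the data. So was a span widened by 50 bp, which left 15 genes with a summit, against 18.9% of all protein-coding genes. Peak numbers per gene stayed within 1.5 times in 102 of 108 cases. Larger changes came with either strand (4 genes) and without other gene spans (2 genes). With an FDR of 0.01 or less, SESN2 and SYVN1 went from 3 peaks to 2, and SESN2 lost its 14.6-fold peak. No paired analysis was possible because the lists carry no libraries. The files hold no read counts, so what depth limits cannot be given.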

Other observations

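Some summits lay just before a gene span and are not counted by a rule that asks for positions inside it. The MACS2 list has no strand, and whether such a summit belongs to the gene named was not tested. Widening every span by 50 bp moved the share of all protein-coding genes with a summit from 18.0% to 18.9%. The share of all these genes with a summit just outside was not counted. Among the stress-response genes there were 2, the one of SDF2L1 described above and one of score 13.3 lying 47 bp before TRIB3. Among the 54 other pathway genes there were 8, with scores down to 11.6. They included the highest score of the list, 126, at 15 bp from the ER co-chaperone gene DNAJB11, which had no other peak or summit, and scores of 50.5 at 45 bp from the ER chaperone gene HSP90B1 and 47.0 at 32 bp from the disulfide isomerase gene PDIA4. The genes named here were chosen after their values were seen.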
